A study of Mus musculus with 16 samples.

Results

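Mouse cortical neurons in culture that carried a c-Fos shRNA were compared after 3 h and after 1 h of depolarisation with KCl. The arrays were chosen by their titles, 2 at 3 h and 2 at 1 h, and are 4 of the 16 arrays of the series. The cultures came from C57BL/6 embryos at embryonic day 16.5. On culture day 5 the cells were exposed for 6 h to lentivirus encoding the shRNA, in medium with 6 µg per ml polybrene, and the neurons were silenced and given KCl on day 7. A control arm received a lentivirus with an shRNA against firefly luciferase, and both arms were sampled at 0, 1, 3 and 6 h of KCl with 2 arrays in each of the 8 groups. Labelled cDNA (10 µg) was hybridised to arrays of the Affymetrix 430 2.0 design for the mouse genome. Arrays of a group are labelled as biological replicates, with nothing on separate dissections or cultures, and the p-values therefore measure only how far these arrays spread. The sources used here do not give the promoter driving the shRNA or the share of infected cells.

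KCl depolarises neurons and opens voltage-gated calcium channels. Calcium entry switches on immediate early genes, many of which encode transcription factors such as Fos, Egr and Nr4a family proteins that need no new protein synthesis to be transcribed. A later wave of effector genes follows, including secreted factors such as Bdnf, neuropeptides and synaptic proteins. c-Fos pairs with Jun proteins to form the AP-1 transcription factor, which binds regulatory DNA of many later genes. The step from 1 h to 3 h therefore spans the handover from the first wave to the second, here in neurons with a reduced level of Fos mRNA.

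Each array gives 1 intensity per probe set, a linear brightness with no absolute zero, and changes below are differences in quantile-normalized log2(intensity + 16), with the standard error (SE) of the limma fit. One probe set stood for each gene, and 13915 genes were tested. Genes are described as called where the p-value, adjusted over all of them by Benjamini-Hochberg, was under 0.05. Correlations between the 2 arrays of a group lay between 0.99064 and 0.99386, and array medians ran from 104.75 to 118.56. Neuronal markers were bright on the 4 arrays (Map2 13389 to 14458, Tubb3 11469 to 13767, Snap25 8965 to 10296). Markers of other cells were also present: the astrocyte gene Slc1a3 at 4984 to 5411, the oligodendrocyte lineage gene Olig1 at 5938 to 6713 and the proliferation gene Mki67 at 944 to 1078. The endothelial genes Cldn5 (29.7 to 39.0) and Pecam1 (8.21 to 30.8) and the microglial gene Cx3cr1 (23.0 to 45.6) were dim. So were the astrocyte gene Gfap (79.0 to 115) and the oligodendrocyte lineage gene Sox10 (163 to 289). Slc17a7, a marker of mature excitatory neurons, was dim (109 to 178). The excitatory neuron genes Neurod6 (7990 to 9809) and Tbr1 (1786 to 2321) were not. These are bulk cultures, in which fewer cells of a type and less RNA per cell cannot be told apart.

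Fos, the target of the shRNA, was still far above its unstimulated level at both times and fell between them. Its intensity was 7728 and 9623 at 1 h and 3763 and 4297 at 3 h, against 118 and 152 on the 0 h arrays and 3142 and 3340 at 6 h. The 3 h arrays lay below both 1 h arrays, a log2 change of -1.12 ± 0.10 (limma adjusted p = 1.98e-05). In the control arm the arrays read 14633 and 14719 at 1 h and 13638 and 13308 at 3 h, a log2 change of -0.12 that was not called (adjusted p = 0.488). The change differed between the arms by -0.99 ± 0.14 (adjusted p = 0.0327, and 0.00128 with the replicate number as a block).

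From 1 h to 3 h, 967 genes (6.95%) were higher and 1720 (12.4%) lower in the c-Fos shRNA neurons. Of these, 118 (0.848%) were higher and 219 (1.57%) lower by at least 2-fold. On every called gene the 3 h arrays and the 1 h arrays did not overlap. With a replicate block in the fit, 1759 genes (12.6%) were higher and 2919 (21%) lower. Leaving out the 3 h replicate 1 array gave 542 higher and 953 lower, and leaving out the 1 h replicate 2 array gave 995 lower. The median log2 change of all genes was -0.04. In the same fit, 273 genes (1.96%) were higher and 197 (1.42%) lower at 1 h than at 0 h, or 569 (4.09%) and 590 (4.24%) with the block. At 3 h against 0 h, 1377 (9.9%) were higher and 2546 (18.3%) lower, and from 3 h to 6 h 1248 (8.97%) were higher and 1136 (8.16%) lower. These comparisons share arrays with one another, so their values are only set side by side.

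The 20 largest rises began with Pcsk1, Bdnf and Atp10d, and 6 of the 20 belong to a gene list chosen by function. These are Pcsk1, Bdnf and Serpinb2 (late effectors), Cartpt and Crh (neuropeptides) and Dusp14 (MAP kinase inhibitors). Slc7a8 is also among the solute carrier genes, a list set by gene symbol. All lists, those set by symbol included, held 1257 of the 13915 tested genes. Pcsk1 encodes a prohormone convertase that cleaves peptide precursors in secretory granules. Its intensity was 322 and 243 at 1 h and 1764 and 1545 at 3 h, after 48.2 and 59.9 at 0 h and before 3181 and 2648 at 6 h. The 3 h arrays were well apart from the 1 h arrays, a log2 change of 2.55 ± 0.15 (limma adjusted p = 1.31e-06), or 5.84-fold on that scale. Bdnf, which encodes the brain-derived neurotrophic factor, read 601 and 730 at 1 h and 2671 and 3221 at 3 h, with 93.6 and 183 at 0 h. That was a log2 change of 2.17 ± 0.23 (adjusted p = 4.75e-05), again with no overlap between the times. Atp10d, a gene for a phospholipid flippase, was nearly level between its 0 h arrays (135 and 165) and 1 h arrays (180 and 184), then reached 747 and 760 at 3 h, a log2 change of 2.01 ± 0.10 (adjusted p = 9.99e-07).

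**Figure D1:**
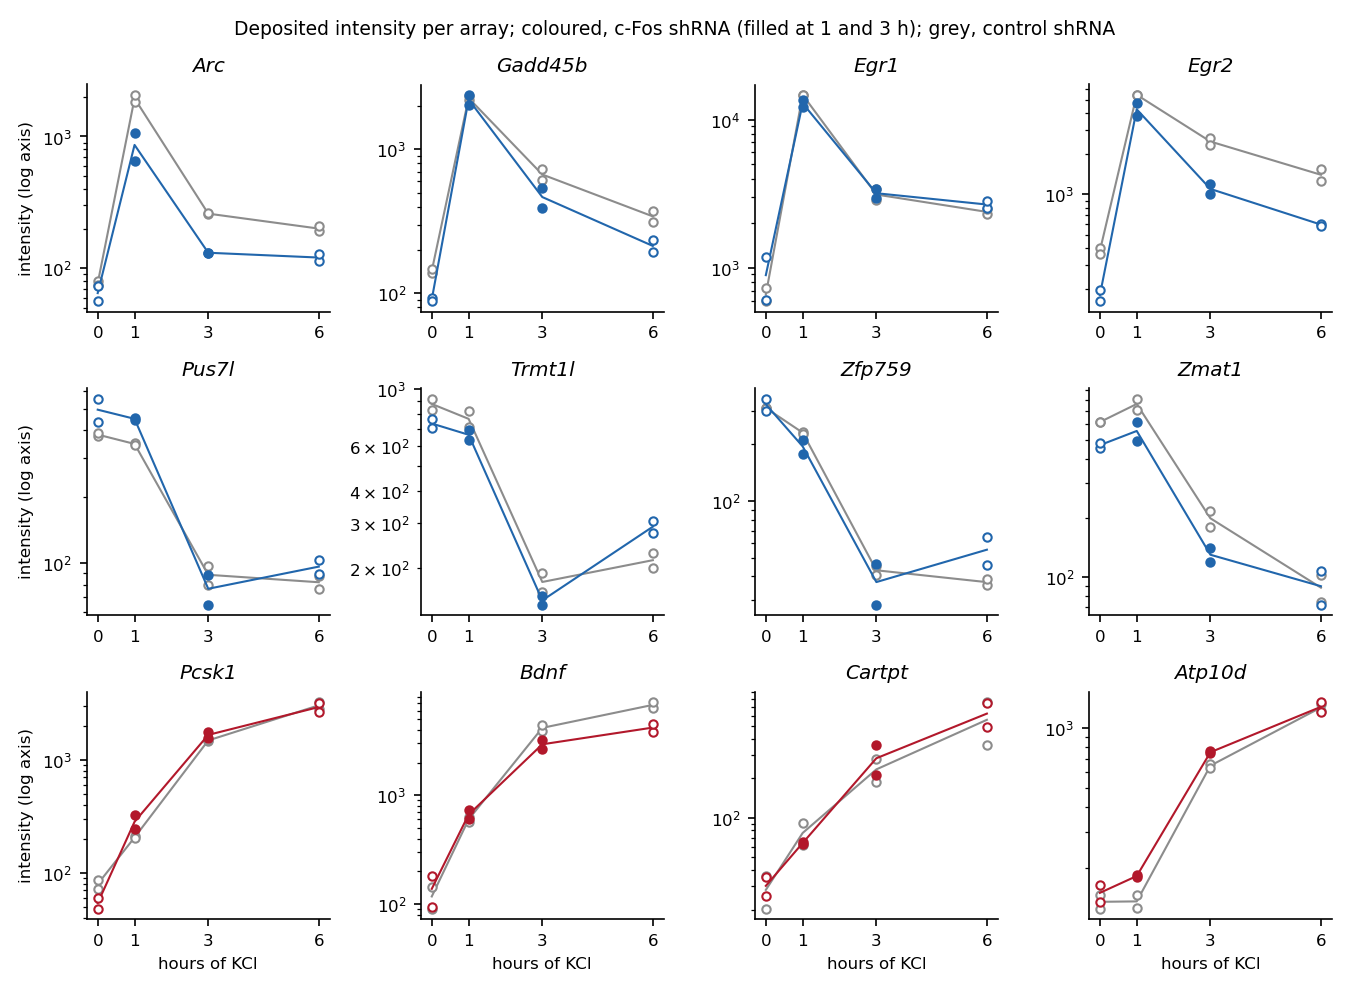
Deposited intensity (log axis, arbitrary units) of 12 genes against hours of KCl, 1 point per array and lines through the group means. Coloured points are c-Fos shRNA arrays (filled at 1 and 3 h, open at 0 and 6 h), blue for genes that fell and red for genes that rose, and grey points are control shRNA arrays. Arc, Gadd45b, Egr1 and Egr2 peak at 1 h, whereas Pus7l, Trmt1l, Zfp759 and Zmat1 start high and fall to their lower 3 h level, Pus7l from 455 and 444 at 1 h to 64.6 and 88.5.

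Neuropeptide genes among the 20 rises were Cartpt and Crh. Cartpt, the precursor of the CART peptides, read 62.9 and 65.5 at 1 h and 211 and 357 at 3 h, a log2 change of 1.87 ± 0.34 (adjusted p = 0.00213). The 3 h arrays were above both 1 h arrays but far from each other. Crh, which encodes corticotropin-releasing hormone, read 87.5 and 168 at 1 h and 345 and 512 at 3 h. Its log2 change of 1.69 ± 0.55 was only just called (adjusted p = 0.0491), and it was not called when any 1 of the 4 arrays was left out, with an adjusted p of 0.231 without the 1 h replicate 1 array. Dusp14, a gene for a MAP kinase phosphatase, read 358 and 539 at 1 h and 1173 and 1285 at 3 h, a log2 change of 1.51 ± 0.17 (adjusted p = 7.17e-05).

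Other genes among the 20 rises belong to none of the lists chosen by function. Mbnl2, which encodes a muscleblind-like regulator of splicing, read 1099 and 1187 at 1 h and 4118 and 3809 at 3 h. This log2 change of 1.81 ± 0.10 (adjusted p = 9.99e-07) rests on the brightest of 5 tested probe sets, and the mean of all its probe sets gave 1.11. Aff1, a gene for a scaffold of a transcription elongation complex, rose by 1.76 ± 0.14, and by 0.71 with the mean of all probe sets. Arid5a, which encodes an RNA-binding protein that stabilises some mRNAs, rose by 1.76 ± 0.16, and Atxn7, a gene for a subunit of the SAGA coactivator, by 1.55 ± 0.09. The long non-coding gene Srrm4os read 344 and 162 at 1 h and 799 and 660 at 3 h, a log2 change of 1.62 that was called in 2 of the 4 fits with 1 array left out (highest adjusted p = 0.12, without the 1 h replicate 2 array).

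The remaining large rises had log2 changes of at most 1.86. They were Rnf43, a membrane ubiquitin ligase gene of the Wnt pathway, Tbc1d8b, Mpp7, the orphan receptor gene Gpr22, the TWEAK receptor gene Tnfrsf12a, Serpinb2, the amino acid transporter gene Slc7a8, Ncapg2 and Tchh. Rnf43 was dim at 1 h, at 4.51 and 15.2, and read 72.7 and 75.0 at 3 h, so its log2 change of 1.83 depends on the added constant and was 0.91 with a constant of 64. Mpp7 gave 1.05 in place of 1.75 with the mean of its probe sets. Serpinb2 gave 0.88 in place of 1.55 with a constant of 64, and its call was lost without the 3 h replicate 2 array (adjusted p = 0.0684). Tchh lost its call without the 1 h replicate 1 array (adjusted p = 0.064) and Tnfrsf12a without the 3 h replicate 1 array (adjusted p = 0.0552). All 20 rises had a positive log2 change in the control arm, between 0.96 and 2.83, and 19 of them were called there.

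The 20 largest falls held 4 immediate early genes. Arc, which encodes a protein that regulates AMPA receptor endocytosis at synapses, read 56.3 and 73.6 at 0 h, then 656 and 1070 at 1 h, and dropped back to 131 and 132 at 3 h. Both 3 h arrays were far below both 1 h arrays but still above both 0 h arrays, a log2 change from 1 h of -2.47 ± 0.18 (limma adjusted p = 5.35e-06). Gadd45b, a stress-response gene linked to DNA demethylation, went from 93.0 and 87.7 to 2395 and 2046, then 392 and 539 at 3 h, a fall from 1 h of -2.18 ± 0.14 (adjusted p = 3.64e-06). The zinc-finger transcription factor genes Egr1 and Egr2 followed the same course. Egr1 read 12124 and 13621 at 1 h and 2947 and 3416 at 3 h (log2 change -2.02 ± 0.20, adjusted p = 3.6e-05). Egr2 read 3769 and 4722 at 1 h and 1000.3 and 1195 at 3 h (log2 change -1.90 ± 0.14, adjusted p = 4.87e-06), and 608 and 589 at 6 h.

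The other 16 of the 20 falls belonged to no early-response list, and at 3 h all 16 had a lower mean than at 0 h. Pus7l, a pseudouridine synthase-like gene, read 434 and 555 at 0 h, then 455 and 444 at 1 h, and only 64.6 and 88.5 at 3 h, a log2 change of -2.29 ± 0.14 (adjusted p = 1.97e-06). The 3 h arrays lay several fold below all 4 earlier arrays. Zfp759, one of many mouse genes for KRAB-type zinc-finger proteins, read 350 and 302, then 179 and 212, then 28.2 and 46.5 (log2 change from 1 h of -1.99 ± 0.17, adjusted p = 1.36e-05), and its second probe set fell by 0.60. Trmt1l, a tRNA methyltransferase-like gene, read 694 and 632 at 1 h and 155 and 143 at 3 h (log2 change -1.97 ± 0.13). A second, dimmer probe set for Trmt1l changed by 0.11 (adjusted p = 0.686), and the mean of both was not called (-0.41, adjusted p = 0.0566).

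Of the 20 falls, 7 carried zinc-finger names: Zfp759, Zmat1, Zkscan16, Zc3h6, Zkscan4, Zfp994 and Zfp775. Among all 13915 tested genes, 281 had a numbered Zfp symbol and 28 a Zc3h, Zmat or Zcchc symbol, and Zkscan genes were not counted. The others included Oxsm, a gene of mitochondrial fatty acid synthesis (-1.89 ± 0.19), Dguok, the mitochondrial deoxyguanosine kinase gene (-1.83 ± 0.15), Cc2d2a (-1.75 ± 0.17) and Ttc30b (-1.72 ± 0.12), which both encode ciliary proteins, the general transcription factor gene Gtf2e1 (-1.74 ± 0.14), Dclk3 and Tspyl3. Dguok read 466 and 504 at 1 h and 104 and 136 at 3 h, and Ttc30b 582 and 590 against 133 and 186, with no overlap. With the mean of all probe sets the changes of Zfp759, Zc3h6 and Gtf2e1 were -1.29, -0.72 and -0.61. All 20 falls were also called lower in the control arm, where their log2 changes lay between -2.76 and -1.15.

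Promoter windows of leading members of each direction are shown as a description of their sequence. They run from 250 bases before to 50 bases after the transcription start in a RefSeq table of assembly GRCm38.p6, which held an entry for 16 of the 20 rises and 15 of the 20 falls. Then 4 patterns were searched on both strands: the cyclic AMP response element TGACGTCA, the AP-1 site TGACTCA, the E-box CACGTG and the CArG box of serum response factor. Shown are the first genes by size in each direction that held one, with the match in capitals.
Pcsk1, chr13:75089607-75089906, plus strand: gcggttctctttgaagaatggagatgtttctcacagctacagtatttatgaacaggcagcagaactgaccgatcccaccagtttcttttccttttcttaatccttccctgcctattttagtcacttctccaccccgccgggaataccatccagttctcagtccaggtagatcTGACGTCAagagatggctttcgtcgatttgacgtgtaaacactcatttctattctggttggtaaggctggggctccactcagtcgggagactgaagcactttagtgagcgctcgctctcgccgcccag
Cartpt, chr13:99900634-99900933, minus strand: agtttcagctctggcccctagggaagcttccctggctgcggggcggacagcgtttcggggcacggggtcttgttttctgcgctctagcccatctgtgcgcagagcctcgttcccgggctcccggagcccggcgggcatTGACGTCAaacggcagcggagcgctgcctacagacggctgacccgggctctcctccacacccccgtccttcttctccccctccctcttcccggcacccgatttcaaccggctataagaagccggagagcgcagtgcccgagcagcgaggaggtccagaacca
Gadd45b, chr10:80929841-80930140, plus strand: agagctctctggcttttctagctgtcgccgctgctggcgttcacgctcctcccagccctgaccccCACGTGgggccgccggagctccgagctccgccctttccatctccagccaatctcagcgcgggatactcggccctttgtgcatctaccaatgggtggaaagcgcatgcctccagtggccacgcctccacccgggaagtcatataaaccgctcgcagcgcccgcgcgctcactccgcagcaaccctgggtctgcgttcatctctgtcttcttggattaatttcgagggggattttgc
Egr2, chr10:67537619-67537918, plus strand: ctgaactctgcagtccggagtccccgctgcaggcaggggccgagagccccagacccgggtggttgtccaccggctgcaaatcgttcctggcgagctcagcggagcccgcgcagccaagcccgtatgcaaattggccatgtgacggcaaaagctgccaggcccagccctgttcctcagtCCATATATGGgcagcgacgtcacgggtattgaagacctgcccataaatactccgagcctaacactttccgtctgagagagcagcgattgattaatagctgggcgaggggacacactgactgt
The capitals mark the cyclic AMP response element in Pcsk1 and Cartpt, the E-box in Gadd45b and the CArG box in Egr2, where 5 windows held a pattern and 1 is shown. The cyclic AMP response element was in 2 of the 16 rises and 1 of the 15 falls (Dguok), and in 2.031% of the 27025 genes of the table. The AP-1 site was in 1 rise (Ncapg2) and 2 falls (Oxsm and Tspyl3), against 5.946% of all genes. The E-box was in 3 falls (Gadd45b, Egr2 and Zfp994) and no rise, against 8.093%, and the CArG box in 1 fall (Egr2), against 1.806%. At least 1 of the 4 patterns was in 3 of the 16 rises and 6 of the 15 falls, against 16.718% of all genes. A match is a description of letters and shows no binding, and these windows leave out distal enhancers.

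Of 29 early-response transcription factor genes, 9 rose and 9 fell between 1 h and 3 h, against 6.95% and 12.4% of all genes, and their median log2 change was 0.15, against -0.04 for all genes. Against 0 h, 22 were called higher at 1 h and 22 at 3 h, where 1.96% and 9.9% of all genes were. The falling members were Egr1, Egr2, Egr3, Ier2, Jun, Nr4a1, Klf4, Junb and Srf. Ier2, a nuclear regulator gene, read 3476 and 3854 at 1 h and 1438 and 1383 at 3 h (log2 change -1.34 ± 0.10, adjusted p = 7.21e-06). Jun, whose product pairs with c-Fos, read 3405 and 3963 and then 1714 and 2134, levels like those of its 0 h arrays, 1752 and 2181 (-0.90 ± 0.16, adjusted p = 0.00207). The groups did not overlap in either gene. Egr3 fell by 1.17 ± 0.17, or by 0.64 with the mean of its probe sets, and the nuclear receptor gene Nr4a1 by 0.84 ± 0.14. Junb changed less, from 6624 and 6550 to 4815 and 4977 (-0.45 ± 0.08, adjusted p = 0.00188).

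The rising members were Atf3, Crem, Csrnp1, Cebpb, Fosl2, Per1, Fosl1, Nr4a2 and Nr4a3. Atf3, a bZIP factor gene of the stress response, read 271 and 329 at 1 h and 742 and 846 at 3 h (log2 change 1.42 ± 0.19, adjusted p = 0.000271). Crem, whose inducible product ICER represses cyclic AMP response elements, read 1258 and 1257 at 1 h and 3211 and 3101 at 3 h, a rise of 1.34 ± 0.11 (adjusted p = 8.47e-06). Both brighter probe sets of Crem rose and its 2 dimmer ones were not called, so that the mean of all was 0.56. Cebpb, a bZIP factor gene, went from 1209 and 1098 to 2465 and 2203 (1.06 ± 0.17, adjusted p = 0.000829). The AP-1 subunit genes Fosl2 (0.58 ± 0.16) and Fosl1 (0.55 ± 0.15) rose while Jun and Junb fell, but neither kept its call with every array left out in turn. Their highest adjusted p-values were 0.174 without the 3 h replicate 1 array and 0.119 without the 3 h replicate 2 array, and for Fosl1 the mean of its probe sets was 0.19 (adjusted p = 0.395). Nr4a3 lost its call without the 1 h replicate 2 array (adjusted p = 0.0545). Klf4 and Srf kept theirs in 2 of the 4 fits, with highest adjusted p-values of 0.112 without the 1 h replicate 1 array and 0.298 without the 3 h replicate 1 array. Srf was also not called with the mean of its probe sets (-0.14, adjusted p = 0.352).

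Some first-wave factors stayed high through this interval. Npas4, an activity-dependent bHLH-PAS factor gene, read 8397 and 8431 at 1 h and 7028 and 7073 at 3 h, against 91.2 and 124 at 0 h. The 3 h arrays were lower, with a log2 change of -0.27 ± 0.09 that was not called (adjusted p = 0.0634) but was called with the block (0.0198). Fosb read 3486 and 3290 and then 2733 and 2624 (-0.33 ± 0.22, adjusted p = 0.365). Maff gave 0.43 ± 0.18 (adjusted p = 0.14, and 0.00113 with the block).

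**Figure D2:**
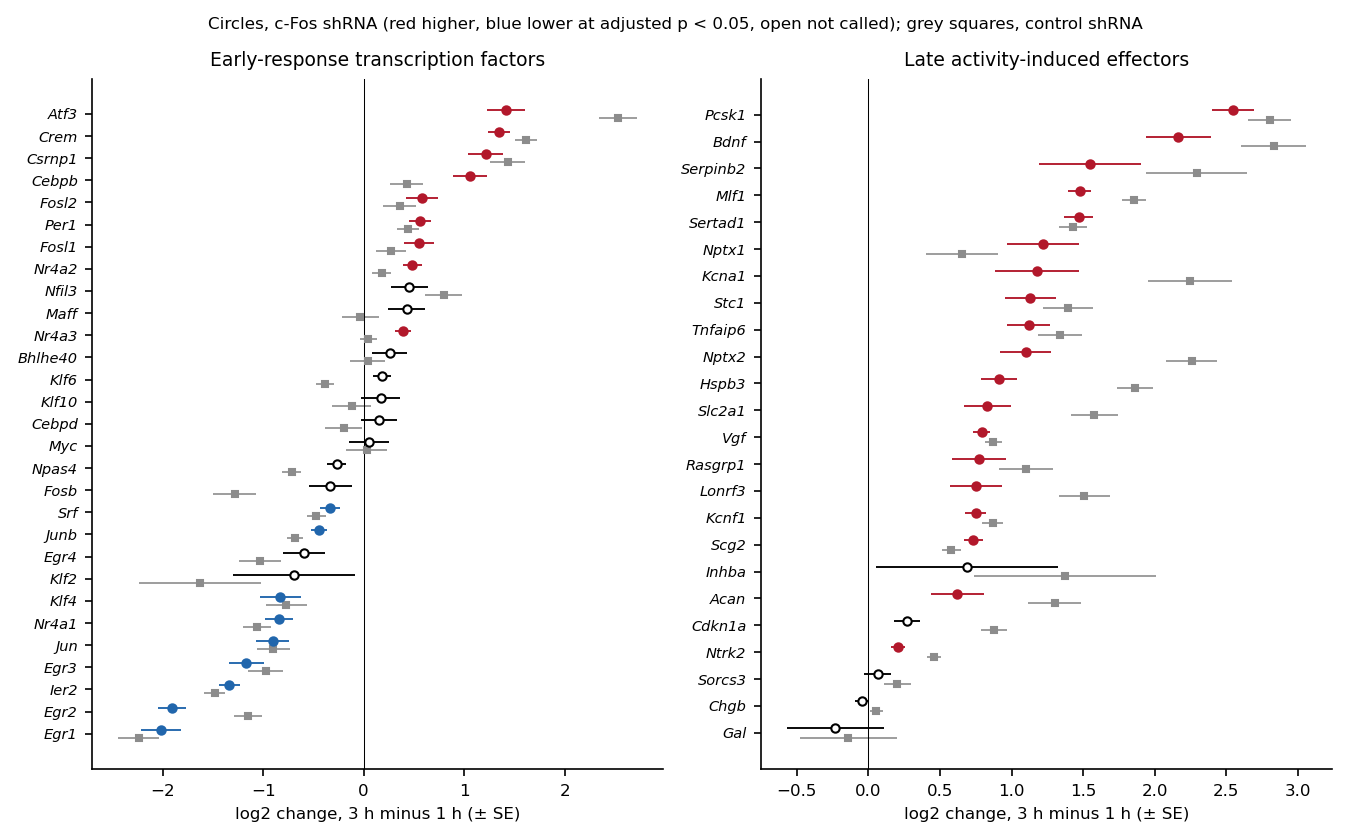
Log2 change from 1 h to 3 h of KCl, with its SE, for the tested members of 2 gene lists. Circles are c-Fos shRNA neurons (red called higher, blue called lower, open not called) and grey squares are control shRNA neurons. The early-response factors spread from -2.02 (Egr1) to 1.42 (Atf3), and 19 of 24 late effectors lie above 0 and were called.

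Signalling and effector genes of the early response numbered 24, of which 5 rose and 5 fell, with a median of 0.22, and 10 rose and 6 fell with the block. Of all genes 6.95% rose and 12.4% fell, or 12.6% and 21% with the block. Besides Arc and Gadd45b, the antiproliferative gene Btg2 fell from 2252 and 3091 to 649 and 1082 (log2 change -1.60 ± 0.21, adjusted p = 0.000236). Ccn1, which encodes a secreted matrix protein, fell from 2185 and 2511 to 1282 and 1462 (-0.73 ± 0.12, adjusted p = 0.0012), and the kinase gene Plk2 by 0.36 ± 0.06, which was not called with the mean of its probe sets (-0.28, adjusted p = 0.159). All 5 falls kept their call when each of the 4 arrays was left out. Of the rises, only Rgs2, a regulator of G-protein signalling, did so (7084 and 7576 against 9517 and 9890, 0.40 ± 0.06). The count of 5 was 1 without the 3 h replicate 1 array and 3 without the 1 h replicate 1 or the 3 h replicate 2 array.

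Feedback inhibitors of MAP kinase signalling split by member, where 6.95% of all genes rose and 12.4% fell. Of 16 genes, 7 rose and 2 fell, and these counts were the same with each array left out. Dusp1, the immediate early phosphatase gene, read 7447 and 7788 at 1 h and 3509 and 3343 at 3 h (log2 change -1.15 ± 0.09, adjusted p = 6.1e-06). Dusp4 moved the other way, from 1623 and 1634 to 3574 and 3295 (1.09 ± 0.10, adjusted p = 2.7e-05), and Dusp16 from 349 and 352 to 935 and 770 (1.30 ± 0.15, or 0.72 with the mean of its probe sets). The Sprouty and Spred genes, whose products restrain Ras and Raf signalling, also rose: Spry1 by 0.99 ± 0.15, Spry4 by 0.82 ± 0.15, Spry2 by 0.57 ± 0.07 and Spred1 by 0.51 ± 0.06. Dusp2 fell by 0.79 ± 0.16. With the block Dusp5 (-0.33) and Dusp6 (-0.26) were also called lower, at adjusted p = 0.0291 and 0.0246.

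Late effectors are genes of the second wave. The members of this and the other lists were chosen with earlier results of these data known, so the counts are a description only. Of all genes 6.95% rose and 12.4% fell, or 12.6% and 21% with the block. Of 24 tested genes 19 rose and 0 fell, with a median log2 change of 0.81, and 12 of the 19 kept their call with each of the 4 arrays left out in turn. The count was 13 without the 1 h replicate 1 array, 14 and 15 without the 3 h replicate 2 and replicate 1 arrays, and 21 with the block. Sertad1, a transcriptional coregulator gene, read 720 and 668 at 1 h and 1852 and 1860 at 3 h (log2 change 1.47 ± 0.10, adjusted p = 3.67e-06). Mlf1 went from 351 and 349 to 931 and 995 (1.47 ± 0.08, adjusted p = 9.99e-07). The granin family genes Vgf and Scg2, whose products are packed into dense-core vesicles, rose from already high levels. Vgf read 3998 and 3931 and then 6923 and 6978 (0.79 ± 0.06, adjusted p = 7.21e-06), and Scg2 4844 and 4509 and then 7878 and 7806 (0.73 ± 0.06, adjusted p = 1.68e-05).

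Among other late effectors, Tnfaip6, a hyaluronan-binding protein gene, rose by 1.12 ± 0.15, the secreted hormone gene Stc1 by 1.13 ± 0.18, the potassium channel gene Kcnf1 by 0.75 ± 0.08 and the glucose transporter gene Slc2a1 by 0.83 ± 0.16. Stc1 gave 0.62 with the mean of its probe sets. Nptx2, which encodes a pentraxin that clusters AMPA receptors, read 346 and 366 at 0 h, then 316 and 390 at 1 h, and reached 644 and 842 at 3 h (1.10 ± 0.18, adjusted p = 0.000974), or 0.73 with the mean of its probe sets. The small heat shock protein gene Hspb3 read 92.4 and 100 and then 203 and 187 (0.91 ± 0.13, adjusted p = 0.000383). Gal (-0.23), Chgb (-0.05) and Sorcs3 (0.07) were not called. Inhba differed more between replicates than between times, 1128 and 322 at 1 h against 1206 and 733 at 3 h, and was called only with the block (adjusted p = 0.00399).

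Of 16 neuropeptide genes 8 rose and 0 fell, against 6.95% and 12.4% of all genes, with a median of 0.46. Adcyap1, the PACAP precursor gene, read 438 and 430 at 1 h and 1012 and 1067 at 3 h (log2 change 1.30 ± 0.19, adjusted p = 0.000506). Nppc, which encodes C-type natriuretic peptide, went from 152 and 164 to 394 and 434 (1.34 ± 0.20, adjusted p = 0.000639), and Cort, for cortistatin, from 102 and 105 to 205 and 202 (0.88 ± 0.19, adjusted p = 0.00592). Sst, for somatostatin, rose by 0.39 ± 0.07 from 4743 and 4797. These genes and Cartpt kept their calls with each array left out, whereas Crh, Tac1 and Pnoc did not, and the count was 5 without the 1 h replicate 1 or the 3 h replicate 2 array. It was also 5 without further normalization. Tac1 (0.45, adjusted p = 0.265) and Crh (adjusted p = 0.0597) were not called with the mean of all probe sets. Npy (0.13), Cck (0.05) and Vip (0.01) were not called.

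Some markers of inhibitory neurons, which hold much of the peptide mRNA in cortex, also changed. Of all genes tested 6.95% rose and 12.4% fell. Gad1, which encodes a GABA-synthesizing enzyme, read 5523 and 5467 at 1 h and 8179 and 8523 at 3 h (log2 change 0.59 ± 0.07, adjusted p = 0.000103), and Gad2 rose by 0.39 ± 0.08, which was not called with the mean of its probe sets (adjusted p = 0.315). Of 11 inhibitory neuron markers 3 rose (Gad1, Gad2 and Sst) and 1 fell (Dlx5, -0.47 ± 0.10, not called without the 3 h replicate 1 array, adjusted p = 0.0549), with a median log2 change of 0.13. The summed intensity of the 12 markers on the array was 23116 and 23444 at 1 h and 27421 and 28128 at 3 h. With Gad1, Gad2 and Sst left out, chosen after their values were seen, the sum of the other 9 was 11814 and 12064 at 1 h and 11658 and 11827 at 3 h, which overlap. Because the members called higher were the ones removed, this sum cannot show whether the inhibitory markers as a group changed. Sst and Npy are members of both lists. The part of these markers in the neuropeptide result was not tested. Slc32a1, the vesicular GABA transporter gene, read 1743 and 2029 at 1 h and 2006 and 2117 at 3 h, which overlap.

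Few markers of the other cell types were called, where 6.95% of all genes rose and 12.4% fell. No member was called among 10 astrocyte, 8 oligodendrocyte lineage, 9 vascular and fibroblast and 2 tested microglia genes by limma, nor did any have an unadjusted p under 0.05. Only with the block were Slc1a2 (-0.18, adjusted p = 0.0374) and Olig2 (0.58, adjusted p = 0.000362) called. The Slc1a2 arrays overlapped between the times, and those of Olig2 did not (1273 and 1737, then 1910 and 2434). The summed astrocyte markers ran from 18904 to 20259 at 1 h and from 17839 to 20398 at 3 h, and the oligodendrocyte lineage markers from 11526 to 15054 and from 11769 to 14865. The sums of the 11 microglia markers on the array were low and did not overlap, 490 to 516 at 1 h and 407 to 417 at 3 h. Those of the progenitor markers did, 11656 to 12948 and then 12831 to 14356, as did the vascular and fibroblast sums, 922 to 2067 and then 953 to 2100. Of 12 progenitor markers, Sox2 (0.41 ± 0.07) and Nes (0.42 ± 0.13) rose, the latter called in 1 of the 4 fits with an array left out (highest adjusted p = 0.284, without the 1 h replicate 1 array) and not with the mean of its probe sets (0.12, adjusted p = 0.818).

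Of 12 genes described as AP-1 targets, 5 rose and 1 fell, against 6.95% and 12.4% of all genes, with a median of 0.39. The cyclin gene Ccnd1 rose from 1461 and 1775 to 2300 and 2721 (log2 change 0.67 ± 0.11, adjusted p = 0.00099), the nuclear lamina gene Lmna from 684 and 836 to 1153 and 1111 (0.64 ± 0.10), the glutathione synthesis gene Gclc by 0.82 ± 0.16 and the intermediate filament gene Vim by 0.28 ± 0.05. Lmna was not called with the mean of its probe sets (0.09, adjusted p = 0.63), and Gclc gave 0.54 without the 1 h replicate 2 array. Timp1, an inhibitor of matrix proteases, was dim at 41.7 and 41.3 and then 79.8 and 76.1 (0.69 ± 0.20) and lost its call whichever of the 4 arrays was left out. Cav1, for the caveolar protein caveolin, fell from 726 and 739 to 294 and 318 (-1.14 ± 0.16, adjusted p = 0.000312). Mmp3, Mmp10, Mmp13 and Plau are also on the array but were too dim to be tested.

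Synaptic and channel genes were called in both directions. Of 20 synaptic organisers 4 rose and 3 fell, against 6.95% and 12.4% of all genes, and Slitrk1, a neuronal adhesion protein gene, changed most, from 2511 and 2551 to 1089 and 1087 (log2 change -1.17 ± 0.06, adjusted p = 9.99e-07). It read 3119 and 3240 at 0 h and was back at 2902 and 2825 at 6 h. Lrrtm4 fell from 402 and 433 to 213 and 220 (-0.83 ± 0.14, adjusted p = 0.00116). Its second probe set gave -0.13 and the mean of both -0.48. None of the 4 rises in the list, Lrrtm1, Lrrtm2, Slitrk4 and Flrt3, kept its call with each array left out, and only 1 rise was called without the 1 h replicate 2 or the 3 h replicate 1 array. The fall of Lrrtm3 was lost in each of those fits. With the mean of all probe sets Lrrtm1 turned to -0.01, and Lrrtm3 (-0.13, adjusted p = 0.604) was not called.

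Of 18 ionotropic receptor genes 1 rose, the GABA-A receptor subunit gene Gabra4 (1159 and 1350 at 1 h, 1958 and 1880 at 3 h, log2 change 0.66 ± 0.08, adjusted p = 0.000146). Of 18 voltage-gated potassium channel genes 3 rose and 4 fell, or 7 and 6 with the block, and 1 and 2 without the 1 h replicate 1 or the 3 h replicate 2 array. Kcnc2, a fast-spiking channel gene, fell from 670 and 862 to 423 and 454 (-0.70 ± 0.12) and Kcnv1, a silent modifier subunit, from 666 and 789 to 322 and 368 (-0.96 ± 0.16, or -0.43 with the mean of its probe sets). Of 20 calcium and sodium channel genes 0 rose and 3 fell. Over all genes 6.95% rose and 12.4% fell, or 12.6% and 21% with the block. The sodium channel gene Scn2a fell by 0.44 ± 0.08 (not called with the mean of its probe sets, -0.27, adjusted p = 0.213), and Cacna1d and Scn3a lost their calls in at least 3 of the 4 fits with an array left out.

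Clock, metabolic and stress genes showed smaller groups of rises. Of all genes tested 6.95% rose and 12.4% fell, or 12.6% and 21% with the block. Of 14 circadian clock genes 5 rose and 0 fell, with a median of 0.34, and 2 rose without the 3 h replicate 1 array and 3 with arrays only shifted to a common median. Per2 read 169 and 225 at 1 h and 471 and 511 at 3 h (log2 change 1.31 ± 0.18, adjusted p = 0.000383), and Cry2 1235 and 1533 and then 2278 and 2347 (0.79 ± 0.11, adjusted p = 0.00031). Among 20 glucose genes 3 rose, led by Slc16a1, a lactate transporter gene, from 1123 and 1123 to 2745 and 2542 (1.26 ± 0.09, adjusted p = 4.88e-06). Of 19 cholesterol genes the synthesis genes Sc5d (0.66 ± 0.11) and Cyp51 (0.37 ± 0.07) and the regulator gene Srebf2 (0.45 ± 0.08) rose and 0 fell, and with the block 6 rose and 2 fell. Of 16 actin genes described as targets of serum response factor 4 rose, among them Myh9 (0.72 ± 0.09) and Tpm4 (0.33 ± 0.07). The mean of all probe sets gave 0.43 for Myh9 and 0.28 for Srebf2.

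Stress-response lists were mixed, where 6.95% of all genes rose and 12.4% fell, or 12.6% and 21% with the block. Of 22 genes of the unfolded protein and integrated stress response 3 rose and 1 fell, and 8 and 2 with the block. Ppp1r15b, a phosphatase subunit gene that restores translation, read 3451 and 3226 and then 5229 and 4739 (log2 change 0.56 ± 0.09, adjusted p = 0.000832). Chac1, a target of the ATF4 pathway, gave 1.45 ± 0.37 and lost its call without the 1 h replicate 1 array (0.94, adjusted p = 0.137). Of 18 heat shock genes 4 rose and 2 fell, with 2 rises without either 3 h array. Dnajb1 fell from 2844 and 2885 to 1611 and 1799 (-0.72 ± 0.08, adjusted p = 7.64e-05), but its second probe set gave -0.03 and the mean of both -0.37. Dnajb4 rose by 0.40 ± 0.07. Of 30 chromatin modifier genes 8 rose and 2 fell, with 5 rises without the 1 h replicate 2 array and 4 without the 3 h replicate 1 array. The remodeller gene Chd2 rose from 1419 and 1596 to 3074 and 3395 (1.11 ± 0.11, adjusted p = 2.69e-05), Hdac5 by 0.51 ± 0.08, and Tet1, a gene for a 5-methylcytosine dioxygenase, fell by 0.64 ± 0.10 (not called with the mean of its probe sets, -0.32, adjusted p = 0.317).

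**Figure D3:**
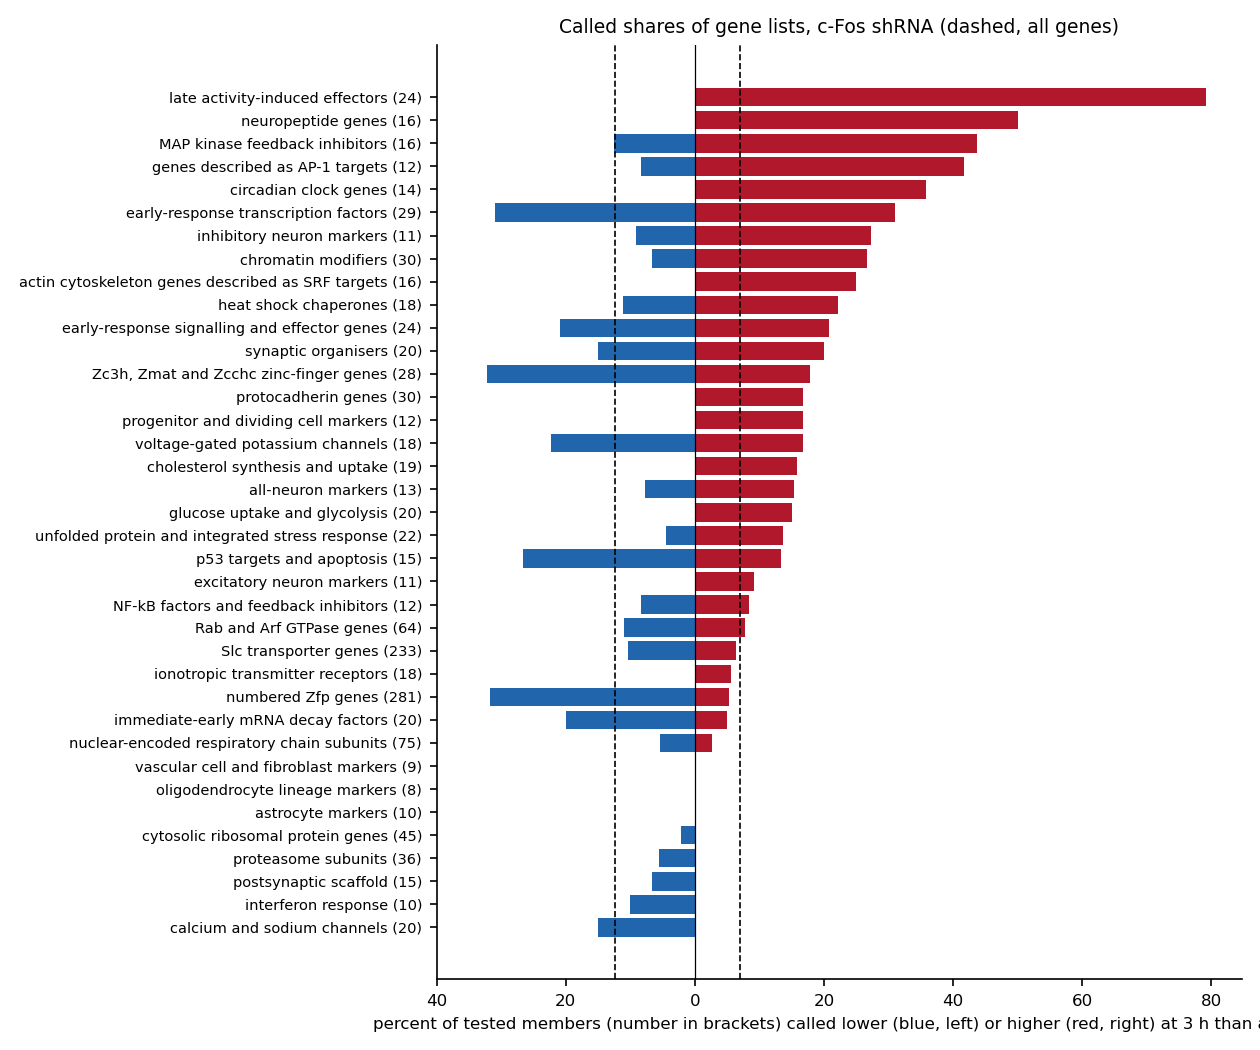
Percent of the tested members of each gene list that were called lower (blue, left) or higher (red, right) at 3 h than at 1 h in c-Fos shRNA neurons, with the number tested in brackets. Dashed lines mark the shares of all 13915 genes, 6.95% higher and 12.4% lower. Late effectors have the longest red bar, 19 of 24, and numbered Zfp genes a long blue one, 89 of 281. The lists were chosen with earlier results of these data known.

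Genes with a numbered Zfp symbol were called lower more often than genes as a whole. Of 281 such genes, 15 rose and 89 fell, against 6.95% and 12.4% of all genes. Their median log2 change was -0.16, against -0.04 for all genes. Most of these encode Krüppel-type DNA-binding proteins, many of them repressors of transposable elements. Zfp688 gave -1.53 ± 0.18 and Zfp60 gave -1.39 ± 0.13 (adjusted p = 0.000105 and 2.14e-05). Zfp516, which encodes a transcriptional regulator, moved the other way by 1.34 ± 0.11 (adjusted p = 7.79e-06). The number of falls was 70 to 88 with an array left out, whereas the number of rises was 5 to 9. Under the other scalings 10 rose and 96 fell. In the neighbouring intervals of this arm 5 rose and 62 fell from 0 h to 1 h, against 1.96% and 1.42% of all genes. From 3 h to 6 h 91 rose and 7 fell, against 8.97% and 8.16%. In the control arm 12 rose and 131 fell from 1 h to 3 h, against 7.33% and 13.8% of all genes. Their median there was -0.34, against -0.02 for all genes.

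RNA-binding zinc-finger genes of the Zc3h, Zmat and Zcchc families gave 5 rises and 9 falls among 28, led by Zmat1 (-1.89 ± 0.17), which read 495 and 613 at 1 h and later 119 and 140. Without the 3 h replicate 1 array the rises numbered 2, and 3 without either 1 h array. Factors that act in decay of early mRNAs gave 1 rise and 4 falls among 20, where 6.95% of all genes rose and 12.4% fell. Tob1, an antiproliferative gene of the Btg family, read 5606 and 5866 at 1 h and 3196 and 2974 at 3 h (log2 change -0.90 ± 0.13, adjusted p = 0.000384), and Btg2 is a member of this list too. The rise, Zc3h12c, was called in 1 of the 4 fits with an array left out (highest adjusted p = 0.169, without the 3 h replicate 1 array).

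The same interval in control shRNA neurons gave 1020 genes (7.33%) higher and 1927 (13.8%) lower, or 1789 (12.9%) and 3043 (21.9%) with the block. The arms share no array. Of the 967 rises with c-Fos shRNA, 654 were also called higher in the control arm, 67.6% of the first list and 64.1% of the second. Of the 1720 falls, 1285 were also called lower, 74.7% and 66.7%. Only 5 genes were called in opposite directions. Being called in one arm and not in the other is no sign of a difference, and the difference itself was tested below.

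**Figure D4:**
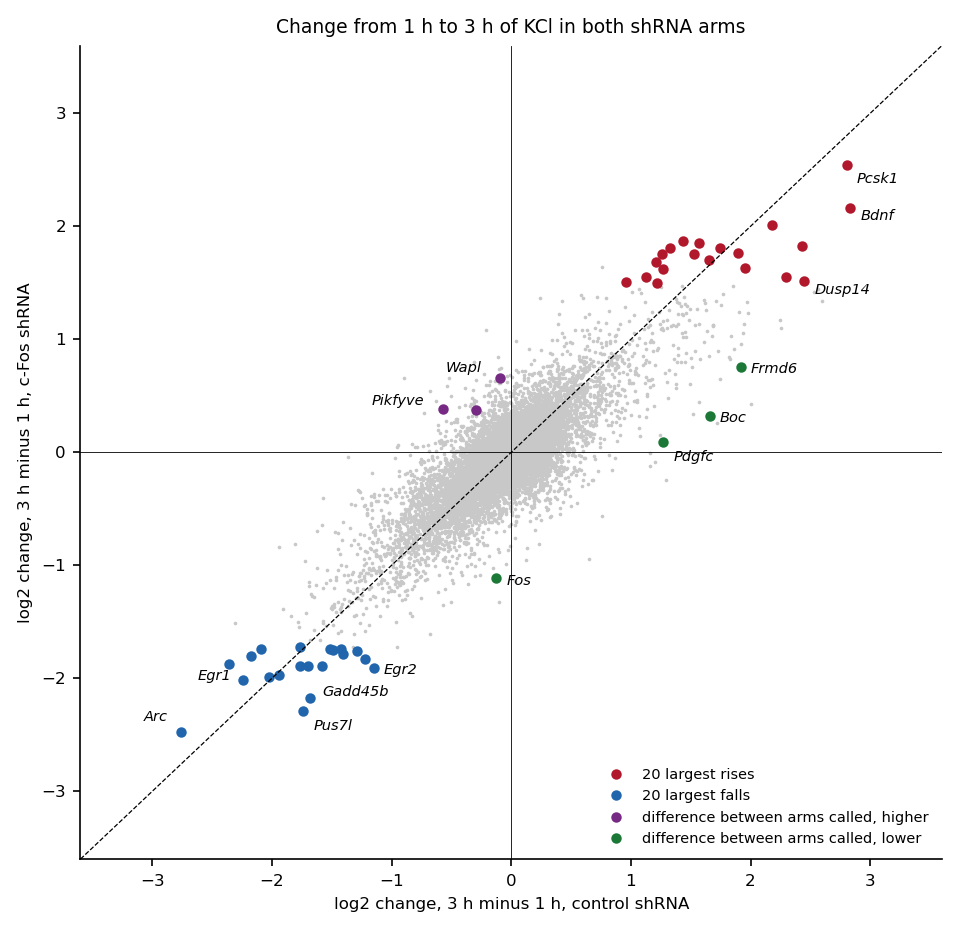
Log2 change from 1 h to 3 h of KCl in control shRNA neurons (x axis) and c-Fos shRNA neurons (y axis), 1 point for each of 13915 genes. Red and blue points are the 20 largest rises and falls with c-Fos shRNA, purple and green points the genes whose change was called different between the arms, and the dashed line marks equal change. Fos lies at -0.12 on the x axis and -1.12 on the y axis.

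The change from 1 h to 3 h differed between the arms in few genes without the replicate block and in more with it. Without the block 3 genes (0.0216%) were higher and 4 (0.0287%) lower with c-Fos shRNA, while 881 had an unadjusted p under 0.05. With the block the counts were 169 (1.21%) and 120 (0.862%). Boc, which encodes a Hedgehog co-receptor, read 208 and 215 at 1 h and 247 and 274 at 3 h with c-Fos shRNA, and 135 and 163 and then 464 and 494 in control neurons. The rise was smaller by 1.34 ± 0.15 (limma adjusted p = 0.0124), and a second probe set gave -1.21. Pdgfc, a platelet-derived growth factor gene, stayed at 879 and 962 and then 991 and 880 with c-Fos shRNA, against 537 and 601 and then 1394 and 1220 in control neurons (difference -1.18 ± 0.14, adjusted p = 0.0124). Frmd6, a gene of the Hippo pathway, rose from 278 and 259 to 452 and 439, against 281 and 263 to 1082 and 957 in control neurons (-1.16 ± 0.16, adjusted p = 0.0222).

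Opposite differences were found for Pikfyve, Wapl and Fbxo28. Pikfyve, a phosphoinositide kinase gene, read 1069 and 947 and then 1266 and 1253 with c-Fos shRNA but 1278 and 1311 and then 773 and 858 in control neurons (difference 0.95 ± 0.13, adjusted p = 0.0222). Wapl, whose product releases cohesin from chromatin, rose from 768 and 779 to 1167 and 1173, and read 1400 and 1389 and then 1259 and 1220 in control neurons (0.76 ± 0.10, adjusted p = 0.0213). Fbxo28, a ubiquitin ligase subunit gene, gave a difference of 0.67 ± 0.10 (adjusted p = 0.0327). Each of these 3 has further probe sets with smaller differences, and with the mean of all probe sets none of the 3 was called. Under that setting Frmd6 stayed called, whereas Boc (-0.61, adjusted p = 0.348), Pdgfc (-1.02, 0.0525) and Fos (0.0546) did not. By limma, no gene was called without the c-Fos 3 h replicate 2, the control 1 h replicate 1 or the control 3 h replicate 1 array, 1 was called without the c-Fos 3 h replicate 1 array and 2 without the control 1 h replicate 2 array. In those 3 fits with no call 441, 493 and 347 genes were higher and 389, 269 and 273 lower at an unadjusted p under 0.05. Leaving out the c-Fos 1 h replicate 1 array gave 1 higher and 5 lower.

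**Figure D5:**
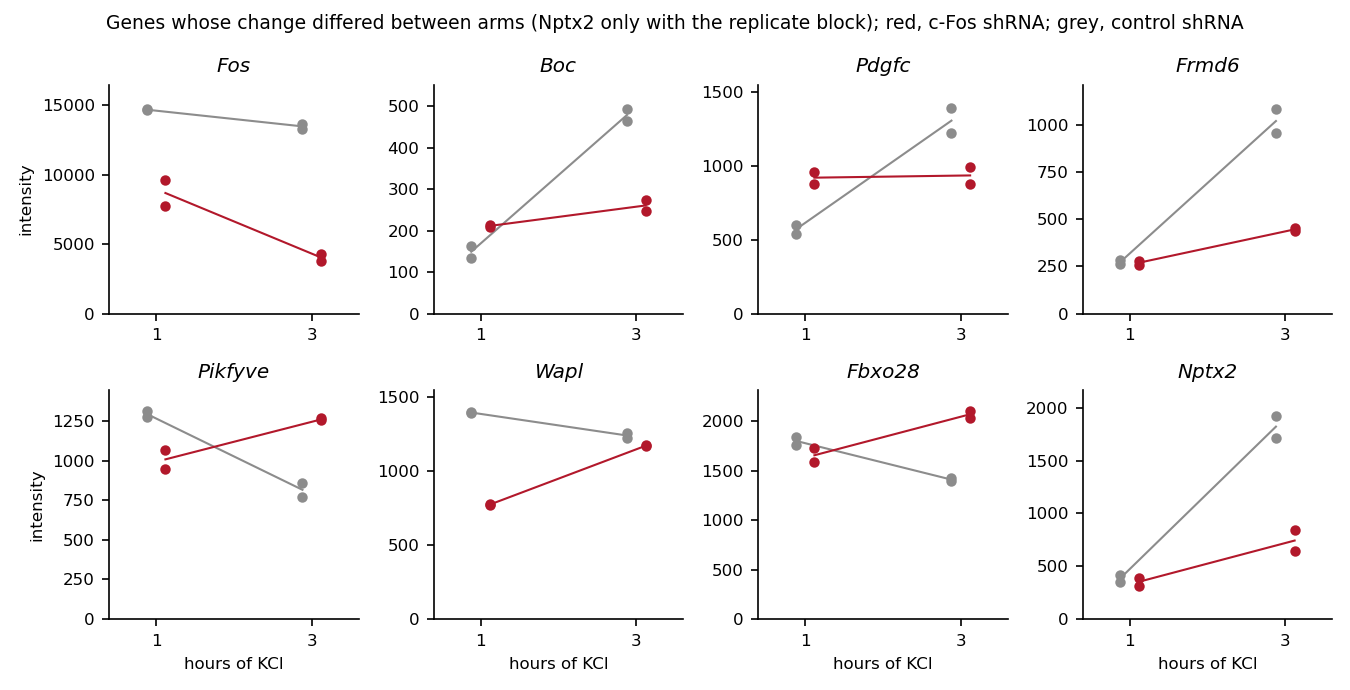
Deposited intensity (arbitrary units, axis from 0) at 1 h and 3 h of KCl for the 7 genes whose change was called different between arms and for Nptx2, which was called only with the replicate block. Red points are c-Fos shRNA arrays, grey points control shRNA arrays, and lines join group means. Pdgfc is level with c-Fos shRNA and rises from 537 and 601 to 1394 and 1220 with control shRNA.

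With the block, differences from the control arm were called in several listed genes, and in late effectors the c-Fos shRNA arm had the lower value in each. Of 24 late effectors 6 were called lower and 0 higher, against 0.862% and 1.21% of all genes. The 6 were Nptx2, Hspb3, Lonrf3, Kcna1, Ntrk2 and Cdkn1a. For Ntrk2 the brightest probe set gave a difference of -0.25, and its other probe sets gave -0.28 to 0.30. Nptx2 reached 644 and 842 at 3 h with c-Fos shRNA and 1716 and 1926 in control neurons, from 353 and 417 at 1 h (difference -1.16 ± 0.25, adjusted p = 0.00116 with the block and 0.148 without). For Hspb3 the difference was -0.95 ± 0.18 (0.00565 and 0.0841). Bdnf gave -0.67 ± 0.32 and Pcsk1 -0.26 ± 0.21, neither called with the block (0.063 and 0.612). The median log2 change of the late effectors was 0.81 in the c-Fos arm and 1.36 in the control arm. In each arm 19 members rose, where 6.95% of all genes rose in the c-Fos arm and 7.33% in the control arm. Taken gene by gene, the median difference was -0.30, and without the block 0 members were called different.

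Other listed genes that differed with the block fell in both directions. Atf3 rose less than in control neurons, by -1.12 ± 0.27 (adjusted p = 0.0272), and Dusp14 by -0.94 ± 0.24 (0.00734), while Egr2 fell more, by -0.75 ± 0.20 (0.037). Among genes described as AP-1 targets, Emp1, which encodes an epithelial membrane protein, was not called with c-Fos shRNA (34.5 and 65.8, then 66.1 and 76.7) and rose in control neurons from 90.6 and 79.9 to 421 and 346 (difference -1.58 ± 0.30, adjusted p = 0.00645). Its second, dimmer probe set gave a difference of -0.14. Cav1 fell from 726 and 739 to 294 and 318 with c-Fos shRNA and was level in control neurons, 236 and 288 and then 221 and 293 (-1.17 ± 0.22, 0.00283). The channel genes Kcna4 (-0.98, 0.0027) and Kcnv1 (-1.08, 0.00539) and the synaptic organiser gene Lrrtm4 (-0.81, 0.00781) also differed, although the second probe set of Lrrtm4 gave a difference of 0.32.

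Larger values than in the control arm were called with the block for Cebpb (0.63, adjusted p = 0.0347), Klf6 (0.56, 0.0216), Nppc (0.92, 0.0277) and Gad1 (0.38, 0.0199). Hspa1a, an inducible Hsp70 gene, read 399 and 451 and then 584 and 701 with c-Fos shRNA, but 283 and 304 and then 115 and 178 in control neurons. The difference was 1.56 ± 0.27 (0.000279 with the block and 0.0699 without). The related gene Hspa1b gave smaller differences, 0.38, 0.33 and 0.29 by probe set, not called without the block. Without the block 0 of 281 numbered Zfp genes were called. With it 15 were called higher and 2 lower, against 1.21% and 0.862% of all genes. Zfp82 is an example, with a log2 change of -0.84 in the c-Fos arm and -1.94 in the control arm (adjusted p = 0.00507 with the block).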

How the data were processed

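RNA from cultured neurons was measured on 16 arrays, and the deposited table gives 1 linear intensity per probe set and array (0.51 to 23935.63, 45101 probe sets). The authors used Affymetrix processing, per the labels' protocols and the series design; the sources used here give neither the software nor its scaling. In R 4.3.3, log2(intensity + 16) was quantile normalized, the brightest probe set stood for each gene, and genes at or below the 30th percentile of mean level (log2 5.786) were left out. Control probe sets (64), those with several genes (932) and those with none (9160) were not used, which left 34945, and 34741 of these matched a RefSeq symbol. The 16 arrays were fitted as 8 group means with limma 3.58.1 (lmFit, eBayes with trend, 8 residual degrees of freedom) and Benjamini-Hochberg adjustment over 13915 genes. The number of arrays limits the precision. The difference between arms is the interaction term of that fit.

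Replicate numbers shared by the groups pair the arrays: deviations from the group means correlated for 28 of 28 pairs of groups (0.364 to 0.596, median 0.475, and 0.503 for the 1 h and 3 h c-Fos shRNA groups), so a replicate block was fitted as an alternative. Other alternatives were the scaling, the added constant, the filter, the mean of all probe sets, fewer arrays in the fit, and leaving out each array. The text names Fos, the 20 largest called rises and falls, the genes called different between arms, and members of gene lists. The members and lists were chosen with earlier results of these data known. The code was tested on simulated data.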

Additional observations from a re-analysis of the deposited data

Results flagged for a closer look

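In 7 genes the change from 1 h to 3 h of KCl differed between c-Fos shRNA and control shRNA neurons by the limma interaction term. The difference in log2 change was 0.95 for Pikfyve, 0.76 for Wapl and 0.67 for Fbxo28. It was -1.34 for Boc, -1.18 for Pdgfc, -1.16 for Frmd6 and -0.99 for Fos, the gene targeted by the shRNA.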

How the results depend on the processing

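The number of genes called between 1 h and 3 h with c-Fos shRNA was 967 higher and 1720 lower. It stayed within 1.5 times these counts under other scalings, added constants and filters, with the mean of all probe sets and with the c-Fos shRNA arrays alone. With the replicate block it was 1759 and 2919, and with only the 4 arrays compared in the fit 529 and 849. Leaving out 1 array gave 542 to 728 higher and 953 to 1483 lower. With the block the control arm gave 1789 and 3043. The difference between arms (3 higher, 4 lower) gave 0 and 2 with the mean of all probe sets, 169 and 120 with the block, and 0 to 3 and 0 to 5 with an array left out. Of Fos and the 40 named rises and falls, 6 lost their call in at least 1 alternative, and of 143 called list members 74 did. With the mean of all probe sets the log2 change turned to -0.046 for Ntrk2, 0.075 for Tut4, -0.011 for Lrrtm1 and 0.13 for Scn3a; the cause was not tested. In 37 genes, probe sets of the same gene were called in opposite directions. Dim genes such as Rnf43 have sizes set partly by the added constant.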

Other observations

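Protocadherins, cell adhesion proteins of the cadherin family, gave 5 rises and 0 falls among 30 tested genes in c-Fos shRNA neurons between 1 h and 3 h. Pcdh20 rose by 1.10 ± 0.10 on the log2 scale, Pcdh17 by 0.65 ± 0.07, Pcdh10 by 0.51 ± 0.10 and Pcdh8 by 0.42 ± 0.03 (limma adjusted p = 1.76e-05, 5.35e-05, 0.00449 and 1.04e-05), and Pcdh18 by 0.75 ± 0.19. The median log2 change of the list was 0.12, against -0.04 for all genes, of which 6.95% rose and 12.4% fell.

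Solute carrier genes gave 15 rises and 24 falls among 233, close to the shares of all genes, 6.95% and 12.4%. The falls numbered 9 without the 1 h replicate 2 array and 12 without the 3 h replicate 1 array, and the rises 9 without the latter and 10 without the 1 h replicate 1 or the 3 h replicate 2 array. Among those called, the monocarboxylate carrier family member Slc16a6 fell by 1.35 ± 0.11 while Slc16a1 rose by 1.26 ± 0.09. The mitochondrial iron importer gene Slc25a37 rose by 0.92 ± 0.09. Of 45 ribosomal protein genes 0 rose and 1 fell, of 36 proteasome genes 0 rose and 2 fell, and of 75 nuclear-encoded respiratory chain genes 2 rose and 4 fell. Of 15 p53 target and apoptosis genes 2 rose and 4 fell, with 1 and 1 without the 1 h replicate 2 or the 3 h replicate 1 array, and Gadd45a rose by 0.89 ± 0.16.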
